A study of Rattus norvegicus with 10 samples.

Results

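NF-kappaB and inflammatory cytokine genes were examined in the livers of 10 male Wistar rats, of which 7 had been exposed 24 h earlier to lethal total-body irradiation (TBI). The set holds 10 genes chosen by name: the cytokines Tnf, Il1b, Il6, Il10 and Il18, the receptor Tnfrsf1a, the inhibitors Nfkbia and Tnfaip3, and the NF-kappaB subunits Nfkb1 and Relb. Probes of an Agilent rat genome array were assigned to them through the transcript accession that each probe carries. In this way 7 of the 10 genes were measured, by 8 probes, out of 13438 gene symbols paired with a probe in all. Tnfaip3, Nfkb1 and Relb were not analysed here. Of the 7 measured genes, 5 were well above background on all arrays of at least 1 group, which leaves out Tnf and Il6.

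The study asked how TBI alters liver transcripts and how pretreatment with MASM, a derivative of the plant alkaloid matrine, alters that response. The 3 control rats were neither irradiated nor given MASM. The 3 TBI rats were exposed to 6.5 Gy from a cobalt source, the dose in the sample labels, which differs from the doses named in the study's article. The 4 MASM + TBI rats received the same exposure after MASM given into the stomach at 30 mg/kg body weight per day on 3 consecutive days. Each array carried RNA of 1 whole liver sample, and no liver given MASM without irradiation was analysed here. The age of the rats is not given in the sources used here.

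NF-kappaB is a family of transcription factors that is held in the cytoplasm by IkappaB proteins. Signals from TNF, IL-1 and Toll-like receptors activate the IKK kinase complex, which marks IkappaB for breakdown, and the freed factors enter the nucleus and switch on cytokines, chemokines, survival genes and their own inhibitors. In the liver, Kupffer cells, the resident macrophages, are a main source of TNF, IL-1 beta and IL-18, while hepatocytes respond to them. IL-1 beta and IL-18 are made as precursors and are cut to their active form by caspase-1 in the inflammasome.

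The control regions of 4 measured members are shown because Nfkbia, the gene of IkappaB alpha, and Il6 are textbook targets of NF-kappaB. Il1b, and Tnf though near or under background, had their highest signal in the same rats as Nfkbia. Each sequence is from RefSeq (build GRCr8) and is written 5′ to 3′ along the strand of its gene, and capitals mark a match to the NF-kappaB consensus motif, searched on both strands. The first 3 are the 250 bases before the gene start, at chr6:78597073-78597322 (minus strand) for Nfkbia, chr3:137036582-137036831 (minus strand) for Il1b and chr20:3626435-3626684 (plus strand) for Tnf. The last is a stretch around the match before Il6, at chr4:5894614-5894663 (minus strand).
Nfkbia: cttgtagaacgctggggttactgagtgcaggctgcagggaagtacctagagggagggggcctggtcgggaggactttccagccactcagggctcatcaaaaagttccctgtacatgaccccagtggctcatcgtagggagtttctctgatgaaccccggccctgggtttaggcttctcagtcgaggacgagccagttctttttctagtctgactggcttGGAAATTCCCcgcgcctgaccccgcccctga
Il1b: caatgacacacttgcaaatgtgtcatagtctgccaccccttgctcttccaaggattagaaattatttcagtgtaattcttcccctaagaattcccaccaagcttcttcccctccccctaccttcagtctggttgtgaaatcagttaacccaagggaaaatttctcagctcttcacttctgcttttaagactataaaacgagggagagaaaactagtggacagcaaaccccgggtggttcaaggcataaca
Tnf: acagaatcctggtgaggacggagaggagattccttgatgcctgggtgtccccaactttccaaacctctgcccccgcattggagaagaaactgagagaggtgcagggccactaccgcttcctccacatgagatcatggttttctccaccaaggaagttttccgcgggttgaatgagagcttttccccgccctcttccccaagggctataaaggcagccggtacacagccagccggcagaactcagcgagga
Il6: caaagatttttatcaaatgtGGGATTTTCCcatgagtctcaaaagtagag
The motif lay 22 to 31 bases before the start of Nfkbia and 59 to 68 bases before that of Il6. No match lay in the 250 bases before Il1b, Tnf, Il18 or Tnfrsf1a. Among all 33465 promoters of this length, 2117 (6.33%) held at least 1 match. A match describes the letters of this window and is not a measured binding site. The lack of a match does not show that a gene has no site, since sequence further upstream was not searched. Il10 had no sequence in the set searched.

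Signals are background-subtracted array intensities on the log2 scale after quantile normalization, so that a difference of 1 is a doubling. The arrays lay on 3 slides, with all controls and MASM + TBI rat 3 on the first, all TBI rats on the second and the other MASM + TBI rats on the third. Slide and group therefore cannot be told apart in any comparison with the TBI rats. TBI rats also had more spots well above background (64.1% to 70.1%) than control rats (57.2% to 59.9%) or MASM + TBI rats (56.2% to 60.2%), and the part of this in the results was not tested. Cdkn1a, a p53 target that served to check the labels, was 5.36 ± 0.27 (SE) higher in TBI than in control livers and 4.80 ± 0.25 higher in MASM + TBI livers (limma, adjusted p = 0.00013 and 0.00015). All 6 hepatocyte markers (Alb, Apoa1, Ttr, Cyp2e1, Tat, Serpina1) were well above background on every array.

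None of the 7 measured members passed an adjusted p of 0.05 in any of the 3 comparisons by limma with Benjamini-Hochberg adjustment over 40945 probes. Over all probes, 5.63% passed for TBI against control, 2.99% for MASM + TBI against control and 1.63% for MASM + TBI against TBI. By the looser rule of the study, which asks for 1.5-fold or more at p under 0.05 before adjustment, 2 members were higher in TBI than in control livers (Il1b and Nfkbia), where 6.53% of all probes were. By that rule 1 member was lower in MASM + TBI than in control livers (Il18), against 4.55% of all probes, and 4 were lower in MASM + TBI than in TBI livers (Tnf, Il1b, Il18 and Nfkbia), against 4.83%. Tnf was not well above background on any MASM + TBI array. With only probes kept that were well above background on all arrays of at least 1 group, the last count was 3. At an unadjusted p under 0.05 with no fold limit the counts were 2, 2 and 4 of 7, where 23.5%, 17% and 17% of all probes passed, so the first 2 counts lie near the share of all probes. The study's methods name a simple test of single probes without giving its form. With unequal variances allowed it gave no member by either rule, and with equal variances, a form added after seeing the data, it gave none after adjustment and 0, 1 and 2 members by the looser rule. The looser count of 2 in TBI against control went to 0 without control rat 1, control rat 3, TBI rat 2 or TBI rat 3, to 1 without MASM + TBI rat 2 and to 3 without TBI rat 1. The count of 1 in MASM + TBI against control went to 0 without control rat 2, control rat 3, MASM + TBI rat 3 or MASM + TBI rat 4. The count of 4 in MASM + TBI against TBI went to 0 without TBI rat 3, to 1 without TBI rat 2 and to 2 without MASM + TBI rat 3 or after normexp background correction.

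**Figure D1:**
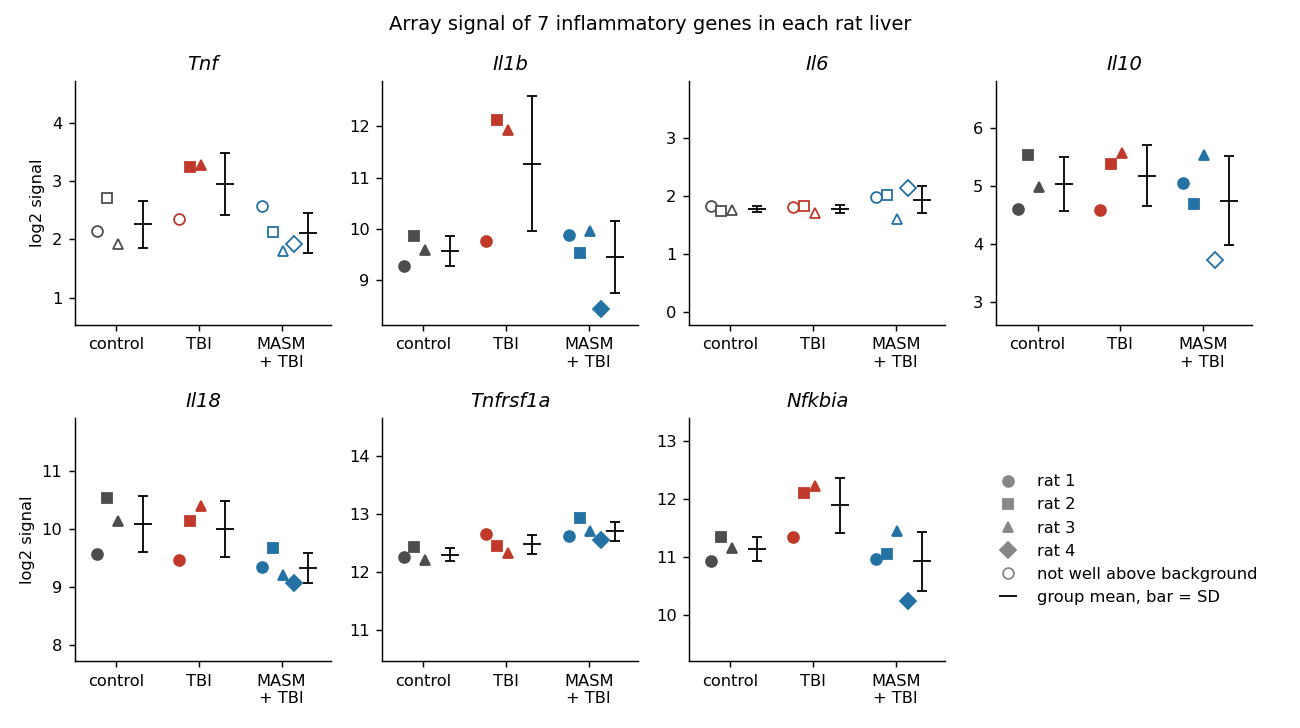
Log2 signal (vertical axis) of the 7 measured members in each rat, by group on the horizontal axis, with the group mean and SD beside the points. Open symbols are not well above background. TBI rats 2 and 3 hold the 2 highest signals of Il1b and Nfkbia, and of Tnf, which was not well above background in any other rat.

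Il1b, the gene of the macrophage cytokine IL-1 beta, differed most of the members between TBI and control livers. Its log2 signal was 9.28, 9.86 and 9.59 in control rats 1 to 3, 9.76, 12.12 and 11.92 in TBI rats 1 to 3, and 9.88, 9.53, 9.97 and 8.43 in MASM + TBI rats 1 to 4. TBI rats 2 and 3 stood above all other rats, whereas TBI rat 1 lay within the range of the controls, and MASM + TBI rat 4 was the lowest of the 10. The mean was 9.57 ± 0.29 (SD, n = 3) in control, 11.27 ± 1.31 (n = 3) in TBI and 9.45 ± 0.71 (n = 4) in MASM + TBI livers. TBI minus control came to 1.69 ± 0.64 (SE), a 3.23-fold difference that did not pass the adjustment (limma, adjusted p = 0.16). MASM + TBI minus TBI came to -1.82 ± 0.60, a 3.52-fold difference with adjusted p = 0.18. A second probe of Il1b gave 1.61 and -1.64 for the same comparisons. MASM + TBI minus control was -0.12 ± 0.60 (adjusted p = 1.00), with a 95% interval from -1.49 to 1.24, so that neither a higher nor a lower level was resolved. On the slide shared with the controls, MASM + TBI rat 3 was 0.39 above the control mean.

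The Il1b result turned on TBI rat 1. Without that rat, Il1b was 2.45 higher in TBI than in control livers (limma, adjusted p = 0.027) and -2.57 in MASM + TBI minus TBI (adjusted p = 0.026), and it was then the member that passed. Without TBI rat 2 the same differences were 1.27 and -1.39, with adjusted p = 0.33 and 0.41. In bulk tissue, fewer cells of a type and less RNA per cell cannot be told apart, for Il1b and for every gene that follows.

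Tnf, the gene of TNF, a main trigger of the pathway, was near or under background. Its signal was 2.15, 2.71 and 1.92 in the control rats, 2.35, 3.25 and 3.29 in the TBI rats, and 2.58, 2.14, 1.81 and 1.92 in the MASM + TBI rats. It was well above background on 2 arrays only, those of TBI rats 2 and 3, the rats that were also highest for Il1b. The lowest signal measurable above background was 2.84 and 2.54 on these arrays but 3.68 to 4.09 on the control and MASM + TBI arrays, so a signal of 3.29 would not have been called there. Because no control and no MASM + TBI array measured Tnf, no difference or fold change is given for it. Where Tnf enters a count by the looser rule or by the sign of the estimate, that entry rests on such unmeasured signals.

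Il6, the gene of the cytokine that drives the acute phase response of hepatocytes, was well above background on none of the 10 arrays. Its signal lay between 1.59 and 2.13, and its level in any group was not detectable with this probe.

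Il10, the gene of an anti-inflammatory cytokine, was dim and showed overlapping groups. Its signal was 4.59, 5.53 and 4.98 in control, 4.59, 5.37 and 5.57 in TBI, and 5.04, 4.68, 5.53 and 3.72 in MASM + TBI livers. MASM + TBI rat 4, the lowest, was the only array on which Il10 was not well above background. TBI minus control was 0.14 ± 0.47 (limma, adjusted p = 0.89), with a 95% interval from -0.93 to 1.22. MASM + TBI minus TBI was -0.43 ± 0.44 (adjusted p = 0.66), with an interval from -1.44 to 0.57. These intervals span a doubling in at least 1 direction.

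Il18, the gene of a cytokine of the IL-1 family, had its lowest signals in MASM + TBI livers. It was 9.58, 10.54 and 10.14 in control, 9.47, 10.15 and 10.41 in TBI, and 9.35, 9.68, 9.22 and 9.08 in MASM + TBI livers. The groups overlapped through MASM + TBI rat 2, which lay above control rat 1 and TBI rat 1. MASM + TBI minus control was -0.76 ± 0.29 (limma, adjusted p = 0.22) and MASM + TBI minus TBI was -0.68 ± 0.29 (adjusted p = 0.28), which are 1.69-fold and 1.60-fold differences. MASM + TBI rat 3 minus the mean of the controls on its own slide was -0.87. TBI and control livers differed by -0.08 ± 0.31, with an interval from -0.78 to 0.62. Without TBI rat 1, Il18 in MASM + TBI minus TBI was -0.95, and without TBI rat 3 it was -0.48.

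Tnfrsf1a, the gene of the TNF receptor that most cells carry, was bright and varied little between rats. Its signal was 12.27, 12.43 and 12.22 in control, 12.66, 12.45 and 12.34 in TBI, and 12.63, 12.94, 12.71 and 12.56 in MASM + TBI livers. All MASM + TBI rats lay above all control rats, a separation upward that 9.35% of all probes showed. The difference was 0.41 ± 0.12 or 1.32-fold (limma, adjusted p = 0.12), and it was 0.40 within the shared slide. TBI minus control was 0.18 ± 0.13 (adjusted p = 0.44), and MASM + TBI minus TBI was 0.23 ± 0.12 (adjusted p = 0.38). Tnfrsf1a was thus the member with the smallest p in MASM + TBI against control, and its fold change stayed under 1.5 in all 3 comparisons.

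Nfkbia encodes IkappaB alpha, which binds NF-kappaB dimers in the cytoplasm and is itself induced by them. Its signal was 10.93, 11.34 and 11.15 in control, 11.35, 12.10 and 12.23 in TBI, and 10.97, 11.05, 11.44 and 10.23 in MASM + TBI livers. The 3 TBI rats lay above the 3 controls, a separation upward that 11.3% of all probes showed, but TBI rat 1 exceeded control rat 2 by little. TBI minus control was 0.75 ± 0.33 or 1.68-fold (limma, adjusted p = 0.21). MASM + TBI minus TBI was -0.97 ± 0.30 or 1.96-fold (adjusted p = 0.16), and MASM + TBI rat 3 lay above TBI rat 1. MASM + TBI minus control was -0.22 ± 0.30 (adjusted p = 0.83), and it was 0.30 within the shared slide. Without TBI rat 1 the differences from control and from MASM + TBI livers were 1.02 and -1.24, with adjusted p = 0.11 and 0.082. Leaving out other rats in turn raised the adjusted p (limma) to as much as 0.39 and 0.36.

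**Figure D2:**
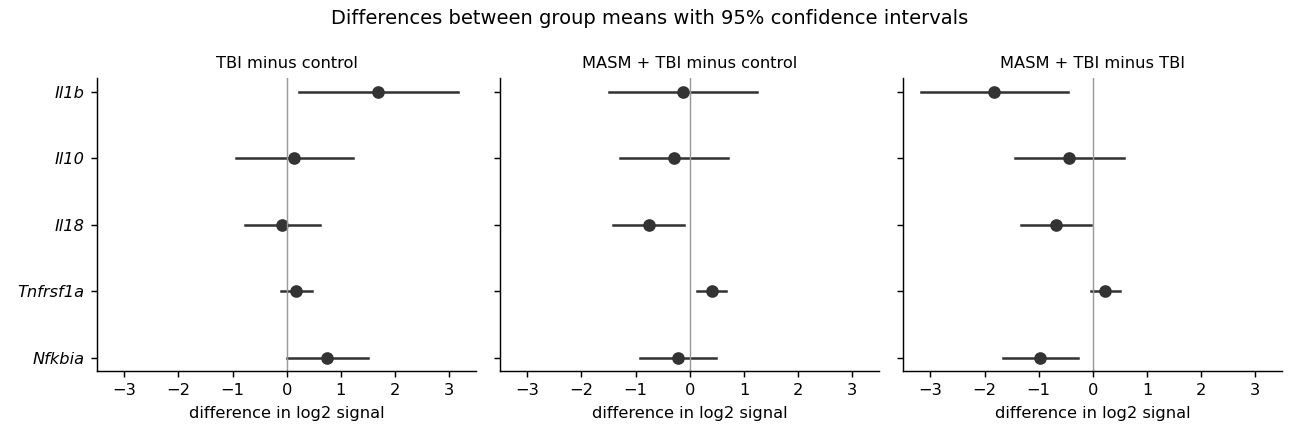
Difference in mean log2 signal (horizontal axis) of the 5 members measured above background, for the 3 comparisons, with 95% confidence intervals from limma. Il1b has the widest intervals, for example 0.23 to 3.15 in TBI minus control, and Tnfrsf1a the narrowest.

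Over the 7 measured members, the median difference was 0.18 for TBI minus control and -0.68 for MASM + TBI minus TBI, beside medians of -0.029 and 0.038 over all probes. No median is given for MASM + TBI minus control, since it would be the value of Tnf, which no array of either group measured above background. Both comparisons share the TBI rats, so high values in TBI rats 2 and 3 enter both. In MASM + TBI minus TBI, 5 of the 7 estimates were under 0, Tnf among them, and the others were those of Tnfrsf1a and of Il6, which was not detected.

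The pathway around the members was followed in 5 lists of 73 genes, of which 60 were measured. By the brightest probe of each gene, 1 of the 60 fell and none rose in TBI against control at an adjusted p of 0.05 (limma), beside 3.19% of all probes that fell. By the looser rule of the study 3 were higher and 1 was lower. In MASM + TBI against control and against TBI, 0 of the 60 passed by limma, and by the looser rule 10 and 8 were lower while 1 and 0 were higher. Over 1 probe of every named gene, 7.54%, 3.5% and 1.73% were higher by that rule and 5.59%, 5.68% and 6.09% were lower in the 3 comparisons. Over all probes it gave 4.55% and 4.83% lower and 3.52% and 3.15% higher in the last 2. The 1 that was higher against control, picked out after its values were seen, was Il1rn, the antagonist of the IL-1 receptor, at 0.91 ± 0.38 (adjusted p = 0.26). It was 0.90 ± 0.40 in TBI minus control (adjusted p = 0.22) and 0.010 ± 0.38 in MASM + TBI minus TBI. The median of the 60 genes was -0.022, -0.14 and -0.17 in the 3 comparisons.

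**Figure D3:**
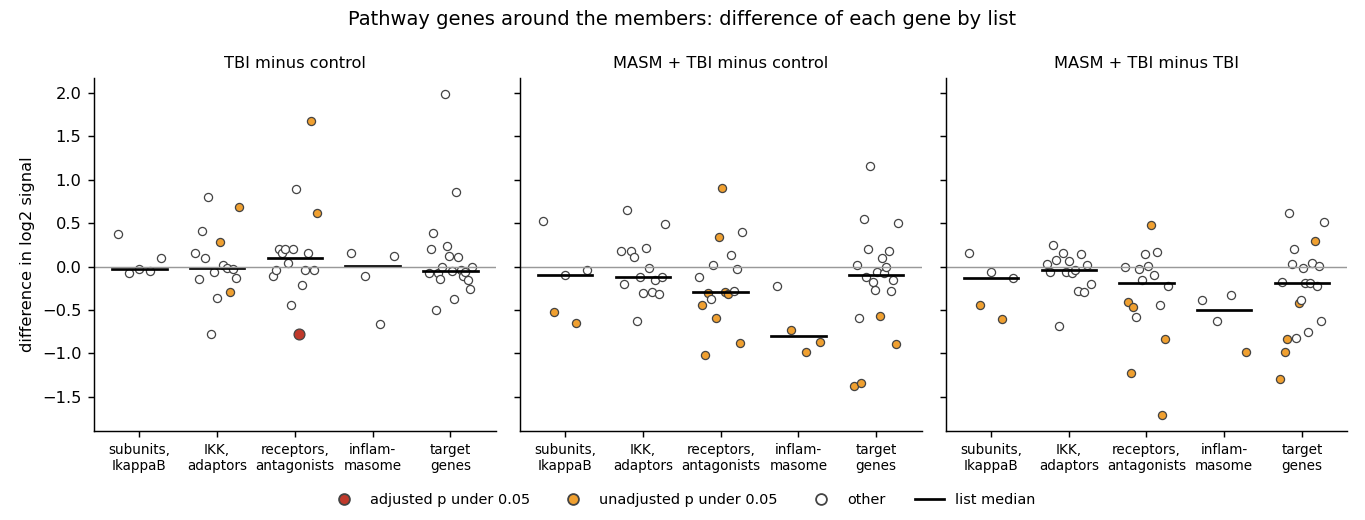
Difference in mean log2 signal (vertical axis) of each measured pathway gene, by list on the horizontal axis, in the 3 comparisons. Filled points mark p under 0.05, red after adjustment, and black lines are list medians. The red point, Il6r at -0.78 in TBI minus control, is the only gene whose brightest probe, the one plotted, passed the adjustment.

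Among 16 measured receptors and soluble antagonists, Il6r, which encodes the IL-6 binding chain of the IL-6 receptor, fell in TBI livers. Its signal was 11.05, 11.28 and 11.13 in control, 10.15, 10.51 and 10.46 in TBI, and 10.75, 10.95, 10.83 and 10.90 in MASM + TBI livers. The 3 groups did not overlap, with the MASM + TBI rats between the others. Over all probes, 19% separated downward in TBI against control, 8.9% did so in MASM + TBI against control, and 12.7% separated upward in MASM + TBI against TBI. TBI minus control was -0.78 ± 0.11 (limma, adjusted p = 0.0091), and it ranged from -0.85 to -0.67 with adjusted p up to 0.035 when each rat was left out in turn. It missed the threshold when only the control and TBI rats were fitted (adjusted p = 0.057) and by the simple test of single probes with unequal or equal variances (adjusted p = 0.25 and 0.10). MASM + TBI minus TBI was 0.48 ± 0.11 (adjusted p = 0.075), and MASM + TBI minus control was -0.29 ± 0.11 (adjusted p = 0.20).

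Tlr2, a receptor for bacterial lipoproteins upstream of NF-kappaB, had the same high rats as Il1b. Its signal was 9.04, 9.35 and 8.85 in control, 9.73, 11.58 and 10.95 in TBI, and 9.33, 9.22, 8.77 and 8.86 in MASM + TBI livers. Every TBI rat lay above every other rat, where 11.3% of all probes separated upward from control and 5.88% downward in MASM + TBI against TBI. TBI minus control was 1.68 ± 0.41 (limma, adjusted p = 0.054) and MASM + TBI minus TBI was -1.71 ± 0.39 (adjusted p = 0.080). Without TBI rat 1 these were 2.19 and -2.22, and both then passed (adjusted p = 0.0072 and 0.0075). When other rats were left out in turn, the adjusted p (limma) reached 0.16 and 0.17. Il1rap, the co-receptor of IL-1, was 0.34 ± 0.08 in MASM + TBI minus control (adjusted p = 0.077), and Cd40, a receptor of the TNF receptor family on antigen-presenting cells, was -0.45 ± 0.13 (adjusted p = 0.12). A dimmer probe of Cd40 gave -0.17 ± 0.14.

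The other NF-kappaB subunits and IkappaB proteins had 5 measured genes, and none passed. Rela, the gene of the p65 subunit, differed by 0.10 ± 0.09 in TBI minus control (limma, adjusted p = 0.55) and by -0.13 ± 0.08 in MASM + TBI minus TBI (adjusted p = 0.46). Bcl3, an unusual IkappaB protein that works in the nucleus, differed by 0.37 ± 0.43 in TBI minus control (adjusted p = 0.64). Nfkbie, the gene of IkappaB epsilon, was 6.72, 7.27 and 7.11 in control, 6.55, 7.30 and 7.11 in TBI, and 6.32, 6.50, 6.37 and 6.33 in MASM + TBI livers. All MASM + TBI rats lay under all other rats for Nfkbie, where 8.9% of all probes separated downward from control and 5.88% from TBI. The differences were -0.65 ± 0.19 from control (adjusted p = 0.12) and -0.60 ± 0.19 from TBI (adjusted p = 0.17). Without TBI rat 1 the second became -0.82 and passed (adjusted p = 0.041), while leaving out other rats raised it to as much as 0.39.

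The brightest probe of Nfkb2, which encodes the p100 precursor of p52, gave -0.53 ± 0.14 in MASM + TBI minus control (limma, adjusted p = 0.089). It passed without control rat 1 (-0.66, adjusted p = 0.047), while other rats left out in turn raised the adjusted p to as much as 0.26. It gave -0.45 ± 0.14 in MASM + TBI minus TBI (adjusted p = 0.16). A dimmer probe of Nfkb2 read 4.85, 5.09 and 4.93 in control, 5.64, 5.72 and 5.15 in TBI, and 4.21, 4.41, 4.67 and 4.47 in MASM + TBI livers. That probe gave -1.06 ± 0.16 in MASM + TBI minus TBI and passed (adjusted p = 0.020). In TBI minus control the 2 probes disagreed, with -0.08 for the brighter and 0.55 for the dimmer (adjusted p = 0.78 and 0.10).

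The IKK complex, adaptors and kinases had 15 measured genes, none of which passed in any comparison. Traf6, an adaptor of the IL-1 and Toll-like receptors, was 0.69 ± 0.26 in TBI minus control (limma, adjusted p = 0.16), and Tab1, a partner of the kinase TAK1, was -0.30 ± 0.11 (adjusted p = 0.16). Ripk1 and Tradd, which dock to the TNF receptor, were -0.29 ± 0.13 and -0.32 ± 0.14 in MASM + TBI minus control (adjusted p = 0.31 and 0.30). The dimmer probes of Tradd gave -0.029 and -0.18 there. Irak2, a kinase of the IL-1 receptor complex, was well above background on all 3 TBI arrays and on no other array, with 3.84, 3.95 and 3.44 in the TBI rats and 2.25 to 3.62 in the rest. The lowest measurable signal on the other arrays was too high for a fold change of Irak2 to be given.

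In the inflammasome and cytokine processing list 4 genes were measured, and their estimates in MASM + TBI minus control were all under 0. The list median was -0.80, and 3 of the 4 were lower by the looser rule, as were 5.68% of named genes, while none passed the adjustment. Pycard, the adaptor ASC, read 8.99, 9.72 and 9.55 in control, 8.94, 9.98 and 9.71 in TBI, and 8.76, 8.53, 8.39 and 8.55 in MASM + TBI livers. All MASM + TBI rats lay under all other rats, as for Nfkbie, beside the same 8.9% and 5.88% of all probes. The differences were -0.86 ± 0.26 from control and -0.98 ± 0.26 from TBI (limma, adjusted p = 0.13 and 0.12). Without TBI rat 1 the latter was -1.28 and passed (adjusted p = 0.027), while leaving out other rats raised the adjusted p to as much as 0.28. Casp4, the caspase that senses bacterial lipopolysaccharide, was -0.99 ± 0.31 from control (adjusted p = 0.14). It was also -0.67 ± 0.33 in TBI minus control and -0.32 ± 0.31 in MASM + TBI minus TBI (limma, adjusted p = 0.26 and 0.63). Casp1, which cuts the IL-1 beta and IL-18 precursors, was -0.73 ± 0.31 in MASM + TBI minus control (adjusted p = 0.28). Adam17, which releases TNF from the cell surface, was -0.22 ± 0.25 there (adjusted p = 0.76). MASM + TBI rat 3 minus the controls on its slide was -1.03 for Pycard and -0.95 for Casp4.

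Among 20 measured NF-kappaB target genes none passed, and the list medians were -0.047, -0.099 and -0.19 in the 3 comparisons. Ccl2, a chemokine that attracts monocytes, was 7.13, 7.60 and 7.24 in control, 6.82, 6.89 and 6.75 in TBI, and 6.81, 5.57, 6.03 and 5.52 in MASM + TBI livers. MASM + TBI minus control was -1.34 ± 0.29 (limma, adjusted p = 0.051), with no overlap of the groups, as for 8.9% of all probes. Without MASM + TBI rat 1 it was -1.62 and passed (adjusted p = 0.0086), while other rats left out in turn raised the adjusted p to as much as 0.16. TBI minus control was -0.51 ± 0.31 for Ccl2 (adjusted p = 0.37), whereas Il1b and Nfkbia had estimates above 0 there. Irf1, an interferon-linked transcription factor, was -0.38 ± 0.19 in TBI minus control and -0.57 ± 0.18 in MASM + TBI minus control (adjusted p = 0.27 and 0.14).

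The survival genes Birc3 and Bcl2a1 had their highest signals in TBI rats 2 and 3, but controls came close to them. Birc3 was 7.47, 8.23 and 7.85 in control, 7.47, 8.64 and 8.59 in TBI, and 7.34, 7.33, 7.35 and 6.99 in MASM + TBI livers. Bcl2a1 was 6.89, 7.58 and 7.24 in control, 6.11, 7.69 and 7.67 in TBI, and 6.37, 6.30, 5.48 and 5.28 in MASM + TBI livers. For both genes all MASM + TBI rats lay under all controls, and for Birc3 under all TBI rats too, beside 8.9% and 5.88% of all probes. The difference of TBI from control was 0.38 ± 0.32 for Birc3 and -0.08 ± 0.48 for Bcl2a1 (limma, adjusted p = 0.50 and 0.94). MASM + TBI minus control was -0.60 ± 0.30 and -1.38 ± 0.45 (adjusted p = 0.37 and 0.15). MASM + TBI minus TBI was -0.98 ± 0.30 for Birc3 and -1.30 ± 0.45 for Bcl2a1 (limma, adjusted p = 0.15 and 0.19). Without TBI rat 1 both passed, with -1.36 (adjusted p = 0.021) and -1.82 (adjusted p = 0.043). Other rats left out in turn raised the adjusted p (limma) to as much as 0.36 for Birc3 and 0.43 for Bcl2a1.

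**Figure D4:**
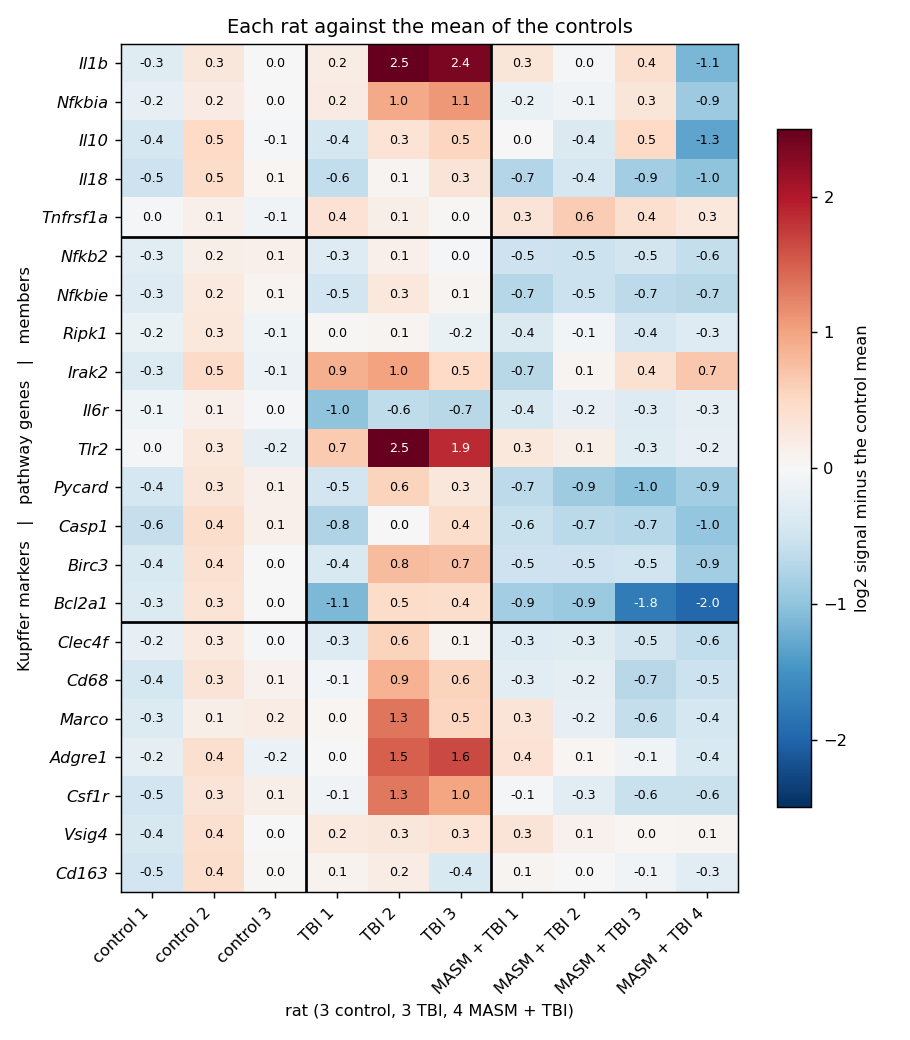
Log2 signal of each rat minus the mean of the 3 controls (colour and printed value) for the 5 members measured above background, the 10 pathway genes named for MASM + TBI against TBI, and 7 Kupffer cell markers. TBI rats 2 and 3 are high for Il1b (2.5 and 2.4), Tlr2 (2.5 and 1.9) and several Kupffer markers. Irak2 is above background only in the TBI rats, so its printed values are set against controls under background and give no fold change.

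Several markers of Kupffer cells and macrophages were high in the same rats as Il1b and Nfkbia. Vsig4 and Cd163 did not follow, as both were highest in control rat 2. They were 0.28 and -0.03 in TBI minus control and -0.15 and -0.04 in MASM + TBI minus TBI. Of 8 such markers 7 were measured (Clec4f, Cd68, Marco, Adgre1, Csf1r, Vsig4, Cd163), each well above background on every array. The summed linear signal of the 7 ranged from 47609 to 67746 in control, from 47267 to 88141 in TBI and from 37616 to 46683 in MASM + TBI livers. TBI rats 2 and 3 were at 88141 and 65023, the latter under control rat 2 at 67746. TBI rat 1 was lowest of its group, and MASM + TBI rat 4 lowest of all. Most of this sum is the bright Clec4f, and the mean log2 signal of the 7 markers, which weights them equally, overlapped between control (10.19 to 10.88) and MASM + TBI livers (10.16 to 10.62), with 10.54 to 11.42 in TBI livers. In MASM + TBI minus TBI all 7 estimates were under 0 with a median of -0.86, and 4 were lower by the looser rule (Cd68, Marco, Adgre1 and Csf1r), as were 6.09% of named genes, but none passed the adjustment (limma). In TBI minus control 6 of 7 were above 0 with a median of 0.46. The part of macrophage content in the values of Il1b, Nfkbia, Tlr2, Il18 and Pycard was not tested.

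T and NK cell markers, of which 9 of 10 were measured, were low in MASM + TBI livers. In MASM + TBI minus control all 9 estimates were under 0 with a median of -1.62, 8 of the 9 genes separated the groups without overlap and 7 were lower by the looser rule, beside 8.9% of all probes and 5.68% of named genes. In TBI minus control 8 of 9 were under 0 with a median of -0.78. These counts include Cd3e, which was well above background on no array. The summed signal of the list, carried in large part by the cytotoxic genes Nkg7 and Prf1, was 1632 to 3080 in control, 920 to 2308 in TBI and 747 to 1221 in MASM + TBI livers, with TBI rat 1 lowest of its group. Cd3g fell in both irradiated groups (limma, adjusted p = 0.0038 and 0.0034). Cd2 was at least 5.14-fold lower in TBI than in control livers (adjusted p = 0.0062), as it was well above background on no TBI array, and it was so on 2 of the 4 MASM + TBI arrays. Neutrophil and monocyte markers (7 of 8 measured) summed to 1034 to 1790, 918 to 1844 and 541 to 1193, and none of them passed.

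Of the B cell markers, Cd22 was 0.54 ± 0.18 in TBI minus control with no overlap of the groups, as for 11.3% of all probes (limma, adjusted p = 0.12). Cd79b was well above background in control livers only, and was at least 4.98-fold lower in TBI and at least 2.55-fold lower in MASM + TBI livers (adjusted p = 0.0048 and 0.0038). A bound such as these sets the mean of the brighter group against the lowest signal measurable above background on the arrays of the dimmer one, or the dimmer probe's own where higher.

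Stellate cell and fibroblast markers (5 of 5 measured) had 4 of 5 estimates under 0 in MASM + TBI minus control, with a median of -0.54 and no overlap for 3 of them, where 8.9% of all probes separated downward. Lrat, the stellate cell enzyme that stores vitamin A, fell in both irradiated groups, with differences from control of -0.62 ± 0.10 in TBI and -0.60 ± 0.09 in MASM + TBI livers (limma, adjusted p = 0.012 and 0.015). The summed signal of these markers was 11584 to 13546 in control, 8060 to 16113 in TBI and 8290 to 9153 in MASM + TBI livers. Sinusoidal endothelial markers (3 of 5 measured) summed to 12631 to 15589.9, 16716 to 20607 and 14629 to 18430.5, and none of them passed. The part of lymphocytes, neutrophils, monocytes, stellate and endothelial cells in the values of the members and of Pycard, Casp1, Casp4 and Bcl2a1 was not tested.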

How the data were processed

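Total RNA of each liver was labelled with Cy3 and hybridised to a 1-colour Agilent whole rat genome array. The authors deposited the scanner output of Agilent Feature Extraction (version 10.7 in the submitters' notes), and the deposited intensity values used here are background-subtracted and detrended spot signals on a linear scale, not normalized between arrays. The processed value table that accompanies them held identical intensities. Control spots (1639 of 45018) and outlier spots were left out, spots of a probe were averaged, and log2 values were quantile normalized, as in the study's methods. Probes were named by matching their transcript accession to RefSeq (GRCr8), which named 16968 probes. Each gene is given by its brightest probe.

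A mean per group was fitted to all 10 arrays with limma 3.58.1 (R 4.3.3), with a moderated spread and Benjamini-Hochberg adjustment over 40945 probes with a value on every array. The fit was tested on simulated data for TBI minus control. It recovered 39 of 100 probes with a true log2 change of 1 and 82 of 100 with a change of 2, with 1 false call. The number of arrays limits the precision. The members and gene lists were chosen with earlier results of these data known. Named genes are all members, pathway genes that passed, and otherwise the 2 of each list with the smallest p in each comparison. Lists were described by counts and medians, and no set test was run. Group and replicate numbers came from the sample titles. Replicate numbers did not pair the rats (correlation of deviations -0.13 to 0.17). Alternatives were another scaling, normexp background correction, a filter on dim probes, another prior, 2 groups per model, a Welch t-test and a t-test with equal variances (the study's methods name a t-test without its form), slide as a block, the replicate block, another probe per gene, and each rat left out in turn. Figures were drawn with matplotlib 3.10.9.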

Additional observations from a re-analysis of the deposited data

Results flagged for a closer look

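In 4 MASM + TBI rats, 1 rat stood apart from the others in 2 of the 28 genes examined, and chance alone picks out about 1 in 20. Adam17, the gene of the protease that sheds TNF, read 6.51 in MASM + TBI rat 1, the highest of the group, whose lowest rat read 6.25. Birc3, an inhibitor of apoptosis, read 6.99 in MASM + TBI rat 4, the lowest of the group, where the highest was 7.35.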

How the results depend on the processing

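No member passed the adjusted threshold in any comparison under any alternative other than leaving out TBI rat 1, which added Il1b in the 2 comparisons with TBI livers. With 1 rat left out at a time, the members that passed ranged from 0 to 1 in TBI minus control, from 0 to 0 in MASM + TBI minus control and from 0 to 1 in MASM + TBI minus TBI. By the looser rule the counts ranged from 0 to 3, from 0 to 1 and from 0 to 4. That rule gave 0 members in all 3 comparisons by a Welch t-test, 0, 1 and 2 by a t-test with equal variances, which was added after seeing the data, 0 with slide as a fixed block in MASM + TBI minus control, and 2 after normexp correction in MASM + TBI minus TBI. The replicate block changed no adjusted call of a member and lowered the looser count in MASM + TBI minus TBI from 4 to 3, and it turned MASM + TBI minus control to 0.22 for Il1b, 0.050 for Il10 and 0.013 for Nfkbia, and slide as a fixed block turned these to 0.39, 0.49 and 0.30 and Il6 to -0.18. The other probe of Rela gave -0.012 in TBI minus control. Leaving out single rats turned the sign of differences near 0 in TBI minus control, where Il6 ranged from -0.018 to 0.043, Il10 from -0.078 to 0.44, Il18 from -0.34 to 0.19 and Adam17 from -0.12 to 0.47. In MASM + TBI minus control the ranges were -0.32 to 0.077 for Tnf, -0.29 to 0.22 for Il1b, -0.55 to 0.050 for Il10 and -0.39 to 0.013 for Nfkbia. Beyond the replicate and slide blocks, the cause of these turns was not tested. Counts over all probes at adjusted p under 0.05 were 2305, 1225 and 666 in TBI minus control, MASM + TBI minus control and MASM + TBI minus TBI. They became 7458, 815 and 5459 with 75th percentile scaling, 10, 40 and 4 by the Welch t-test, 154, 551 and 58 by the t-test with equal variances, 1053, 298 and 22 with the replicate block, and 6742, 2852 and 2048 with slide as a random block. Fitting 2 groups at a time gave 972 and 263 for the comparisons with TBI rats, slide as a fixed block gave 536 for MASM + TBI minus control, and single rats left out gave 969 to 2787, 490 to 1488 and 250 to 1268. By the looser rule over all probes, 5166, 3301 and 3267 became 881, 748 and 350 after normexp correction. With 75th percentile scaling the first and last were 10347 and 8647, by the Welch t-test 2900 and 1649, and with dim probes left out the last was 2049. Some pathway genes that missed the adjusted threshold passed under alternatives that keep all rats. In TBI minus control, Tlr2 did so under 4 of 9. In MASM + TBI minus control, Ccl2 did so under 4 of 10, Il1rap under 2 of 10 and Nfkb2 under 1 of 11. In MASM + TBI minus TBI, Tlr2, Il6r and Pycard did so under 2 of 9 and Nfkb2 under 1 of 10. All but the last included slide as a random block, fitted with a slide correlation of -0.13, which raised the calls over all probes in every comparison. Those of Tlr2, Il6r and Pycard included 75th percentile scaling, which raised the calls over all probes in both comparisons with TBI livers. Signal over background limits Tnf, Il6, Il10 and Irak2.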
